A study of Mus musculus with 16 samples.

Results

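The genes described here encode the proteins of the cytosolic ribosome. They were taken as every probe set that the platform annotation pairs with a single symbol starting with Rpl or Rps and a digit, or with Rpsa, Rplp0, Rplp1 or Rplp2, leaving out the Rps6k kinases, Rps19bp1, pseudogene symbols ending in -ps and the mitochondrial Mrpl and Mrps genes. This gave 105 of 45101 probe sets and 49 of the 18194 genes that have a probe set with 1 symbol. Of the 49 genes, 21 encode small-subunit proteins, 20 large-subunit proteins, 2 proteins of the stalk (Rplp0 and Rplp2) and 6 are paralogs of a canonical gene (Rps27l, Rps4l, Rpl22l1, Rpl7l1, Rpl3l and Rpl39l). They lie on 17 chromosomes. The rule covers 48 of the 88 protein-coding genes whose RefSeq symbol fits it, and the remaining gene, Rps4l, is annotated there as a transcribed pseudogene. The canonical genes Rplp1, Rps27a, Rpl3, Rpl5 and Rpl10 were named for their roles but had no probe set with 1 symbol, so no value is given for them.

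RNA of the hippocampus was measured on 16 Affymetrix mouse arrays, 4 per genotype, from male mice aged 2 months with the strain given as C56/BL6. N_dCKO mice carried the genotype APP-/-; APLP2-/- and are called neuronal conditional double knockouts in the series title, APP_KO mice were APP-/-, APLP2_KO mice were APLP2-/-, and WT mice were wild type. The Cre driver and the cells that lost the genes are not stated in the sources used here, and neither is whether the numbered replicates are separate animals, so p-values measure only the spread between these arrays, which may be technical. In whole tissue, fewer cells of a type and less RNA per cell cannot be told apart.

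A ribosome joins a small subunit, which holds and reads the mRNA, to a large subunit, which makes the peptide bond, and the acidic P proteins on the large subunit form a stalk that recruits elongation factors. Cells make the ribosomal proteins in matched amounts, and the mRNAs of vertebrate ribosomal proteins begin with a C followed by a run of pyrimidines, the terminal oligopyrimidine or TOP tract, through which mTORC1 and LARP1 control their translation. In the brain, ribosomes also lie in dendrites and near synapses, where local protein synthesis serves plasticity.

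The start of the transcript is the sequence that marks this gene family, so it was read for the members in the RefSeq promoter table (build GRCm38.p6), which held 43 of the 49 genes. A TOP-like start, counted as a C within 3 bases of an annotated start followed by at least 4 pyrimidines, was present in 16 of the 43 genes (37.2%), against 13.2% of 17491 protein-coding genes. The windows below run from 12 bases before to 18 bases after the annotated start, with the tract in capitals. They show the stalk gene Rplp2, the signalling target Rps6, the large-subunit gene Rpl38 and the paralog Rps27l, each with a TOP-like start, and then Rps25 and the stalk gene Rplp0, in which none was found at the annotated start.
Rplp2, chr7:141447639-141447668, plus strand: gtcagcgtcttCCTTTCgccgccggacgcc
Rps6, chr4:86857350-86857379, minus strand: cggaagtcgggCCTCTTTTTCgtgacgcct
Rpl38, chr11:114668568-114668597, plus strand: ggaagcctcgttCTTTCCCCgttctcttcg
Rps27l, chr9:66946074-66946103, plus strand: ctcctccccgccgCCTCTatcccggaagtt
Rps25, chr9:44407702-44407731, plus strand: ttccgacatcttagcgaggctgctgtggtc
Rplp0, chr5:115559455-115559484, plus strand: ttcgggtttcgaggaccgcctggttctcct
A missing tract says only that the letters are not at that annotated start. In the 300 bases around the start, searched on both strands, CCGGAAG (the core bound by ETS factors such as GABP) was found in 48.8% of the members against 12.9% of all genes, GGGCGG (the SP1 box) in 58.1% against 49.2%, ATGGCGGC (a YY1-type motif) in 2.33% against 3.50% and TATAAA in 14.0% against 14.8%.

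The deposited values are MAS5 signals on a linear scale, and all changes below are differences of log2(signal + 9), tested with limma over all genes. The arrays bore out the genotypes: App averaged 2191 ± 195 in N_dCKO, 2511 ± 180.4 in APP_KO, 19654 ± 1410.1 in APLP2_KO and 18499 ± 1098 in WT, and Aplp2 averaged 999 ± 122 in N_dCKO, 5778 ± 277 in APP_KO, 1162 ± 276 in APLP2_KO and 5984 ± 229 in WT (SD, n = 4 each). A filter at the median signal left 11665 genes, among them 46 of the 49 ribosomal protein genes. The paralogs Rpl3l and Rpl39l, which are known for expression in striated muscle and in testis, and the only Rps16 probe set with 1 symbol were below the filter, with signals of at most 54.0 on any array, and were not tested. Members that passed were tightly measured: their median within-group SD was 0.077 on the log2 scale, against 0.139 over all tested genes. The lowest SD was that of Rps19 (0.036), a small-subunit protein mutated in Diamond-Blackfan anaemia, and the highest that of Rps27 (0.667). The members were also much brighter, with a median signal of 10081.9 against 699.7 over all tested genes. They were not compared with genes of like signal. The part of signal level in their low SD, and in the shares near no change given below, was not tested.

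None of the 46 ribosomal protein genes passed the test in N_dCKO hippocampus against WT (limma with Benjamini-Hochberg adjustment, lowest adjusted p = 0.115), where 0.943% of all tested genes were called. The log2 fold changes were small: the median was -0.02, against -0.004 over all genes, 12 were above 0 and 34 below (48.7% of all genes were above 0), and 41 of 46 lay within 0.1 of no change, against 57.4% of all genes. For 37 of the 46 (80.4%), the 95% interval of the change stayed within 1.2-fold of WT in either direction, a precision that 39.5% of all genes reached. The background of all genes was not matched to the higher signal of the members. At an unadjusted p below 0.05, 3 members (Rps25, Rps4l and Rps6) were lower and 0 higher, and over all genes 6.87% were lower and 5.11% higher at that level. The 20 small-subunit genes had a median of -0.01, the 20 large-subunit genes -0.02, the 2 stalk genes 0.01 and the 4 paralogs -0.15.

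Neither single knockout gave a called member. In APP_KO against WT, 0 of 46 were called (lowest adjusted p = 0.960, limma), beside 0.00857% of all genes, which is 1 gene. The median was 0.05, and 37 members were above 0 and 9 below, with 48.3% of all genes above 0. At an unadjusted p below 0.05 there were 0 members higher and 0 lower, beside 2.01% and 3.16% of all genes. In APLP2_KO against WT, 0 of 46 were called (lowest adjusted p = 0.180), beside 0.129% of all genes. The median was 0.04, with 32 above 0 and 14 below and 46.7% of all genes above 0. At an unadjusted p below 0.05 there were 1 higher (Rplp2) and 2 lower (Rps25 and Rps4l), beside 3.05% and 4.38% of all genes. Within 0.1 of no change lay 40 members in APP_KO and 38 in APLP2_KO, against 66.9% and 61.9% of all genes. The interval stayed within 1.2-fold for 37 and 36 members, against 45.5% and 42.3% of all genes. The 3 comparisons share the 4 WT arrays, so their values stand side by side and are not separate evidence.

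**Figure D1:**
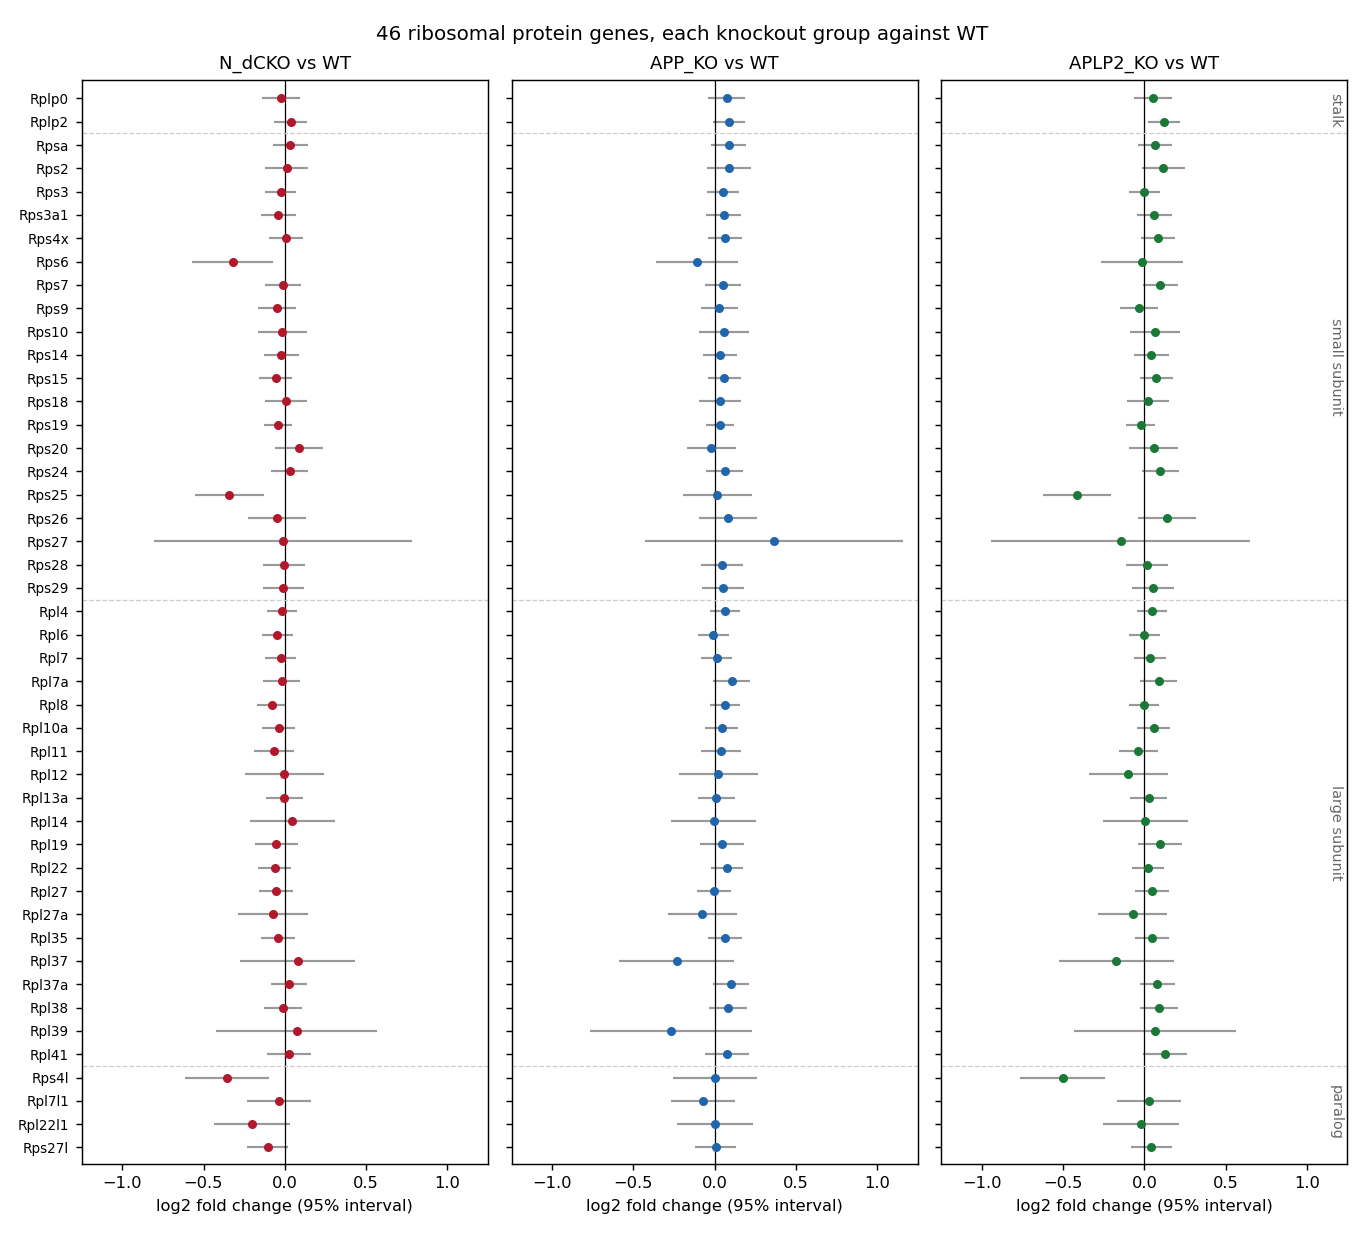
Log2 fold change of each of the 46 tested ribosomal protein genes (points) with its 95% interval (bars) in N_dCKO, APP_KO and APLP2_KO, each against WT, by role. Most points lie within 0.1 of 0 with short bars, while Rps25 and Rps4l sit at -0.34 and -0.36 in N_dCKO and at -0.42 and -0.50 in APLP2_KO; none passed the adjusted threshold.

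The double knockout was also set against each single knockout. Against APP_KO, 0 of 46 members were called (lowest adjusted p = 0.218, limma), beside 0.351% of all genes, with a median of -0.07 and 6 members above 0 and 40 below (49.6% of all genes were above 0). At an unadjusted p below 0.05 there were 0 higher and 6 lower, beside 3.6% and 4.11% of all genes. Against APLP2_KO, 0 of 46 were called (lowest adjusted p = 0.462), beside 0.0257% of all genes, with a median of -0.06 and 9 above 0 and 37 below (51.5% of all genes were above 0). At an unadjusted p below 0.05 there were again 0 higher and 6 lower, beside 4.13% and 4.31% of all genes. In the contrast that takes both single-knockout changes away from the double-knockout change, limma called 0 members and 0 of all genes (0%). There 12 members, among them Rpl7a, Rps15 and Rplp2, had a negative value at an unadjusted p below 0.05 and 0 a positive one, beside 2.11% and 2.04% of all genes. Its median was -0.13 over the members and 0.01 over all genes, and 9 members were above 0 and 37 below, with 52.3% of all genes above 0. After quantile normalization of the arrays, this median was -0.02 over the members and 0.002 over all genes, and 3 members were negative and 1 positive at that level. The share of all genes at that level under this normalization is not given here, so these counts have no background to be read against.

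On some arrays the small shifts were shared by most members, and on others the members split nearly evenly. The number of members above their own mean over the 16 arrays was 9, 9, 27 and 7 of 46 on the N_dCKO arrays, 11, 33, 41 and 25 on the APP_KO arrays, 30, 16, 37 and 29 on the APLP2_KO arrays, and 10, 22, 23 and 31 on the WT arrays. Over all tested genes the share above the mean was between 47.1% and 56.6% on every array. The groups overlapped: the lowest APP_KO array and the lowest WT array lay among the N_dCKO arrays, and N_dCKO array 3 lay within the ranges of APP_KO and APLP2_KO. The highest signal on the array ran in a similar order within groups, at 30815, 31273, 35142 and 30292 in N_dCKO, 32636, 32898, 38601 and 32254 in APP_KO, 35362, 30887, 37682 and 34507 in APLP2_KO, and 29153, 32699, 34766 and 33891 in WT. Array 3 was the highest of its group in all 4 by this measure. With quantile normalization, which gives every array the same distribution of signals, between 15 and 35 members lay above their mean on each array, and the split between members above and below 0 was 14 to 32 in N_dCKO, 31 to 15 in APP_KO and 24 to 22 in APLP2_KO against WT.

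**Figure D2:**
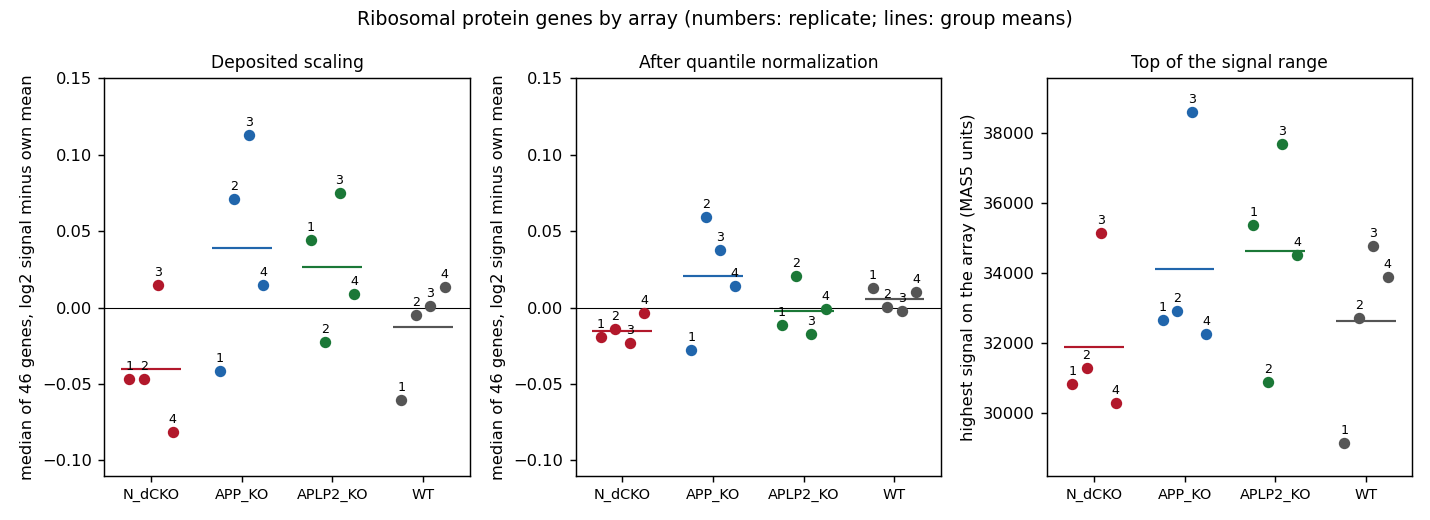
Left and middle, the median over the 46 ribosomal protein genes of log2 signal minus the gene's mean over 16 arrays, as deposited and after quantile normalization; right, the highest signal on each array. Points are arrays with their replicate numbers and lines are group means. As deposited, the medians run between -0.08 and 0.11 and the groups overlap, and after quantile normalization they lie between -0.03 and 0.06.

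With each array centred on its own median, the split was 1 to 45 in N_dCKO, 3 to 43 in APP_KO and 11 to 35 in APLP2_KO against WT, and the median of all genes then stood at -0.09, -0.10 and -0.09. Centring thus shifted all genes alike: relative to the median of all genes, the family stood at -0.02 in N_dCKO, 0.05 in APP_KO and 0.05 in APLP2_KO against WT both as deposited and after centring. With quantile normalization these relative values were -0.009, 0.012 and 0.007, with the same signs. The Gapdh control probe sets gave a ratio of 3′ to 5′ signal of 0.813 ± 0.017 in N_dCKO, 0.780 ± 0.026 in APP_KO, 0.779 ± 0.031 in APLP2_KO and 0.764 ± 0.015 in WT (SD, n = 4 each). This measure of RNA and label quality thus also differed between N_dCKO and WT. The same ratio for the actin control did not separate them: it was 1.63 ± 0.07 in N_dCKO, 1.60 ± 0.07 in APP_KO, 1.67 ± 0.06 in APLP2_KO and 1.64 ± 0.05 in WT. With the ratio as a covariate, chosen after the data were seen, the N_dCKO median was 0.04 in place of -0.02. The part of these array properties in the shared shift was not tested further.

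Rps25 had the smallest p of the members in N_dCKO against WT. It encodes a small-subunit protein needed for initiation at certain viral internal ribosome entry sites. Its probe set read 284, 292, 291 and 278 in N_dCKO, 404, 379, 370.4 and 328 in APP_KO, 252, 234, 296 and 310.1 in APLP2_KO, and 361, 360.5, 348 and 393 in WT. Every array of the groups labelled APLP2-/- lay below every array of the groups that kept Aplp2. The change against WT was -0.34 ± 0.10 in N_dCKO (SE, adjusted p = 0.115, limma) and -0.42 ± 0.10 in APLP2_KO (adjusted p = 0.180), and it was 0.02 ± 0.10 in APP_KO. None passed the threshold. With the probe set tested for each gene, Rps25 was the only member whose N_dCKO and WT arrays did not overlap. Over all genes, 4.46% were lower without overlap and 2.90% higher. Untested probe sets were not counted, and some of them, among them ones of Rpl35, Rpl7, Rps10 and Rps27l, also read lower on every N_dCKO array. In APLP2_KO, again with the tested probe sets, 1 member lay below all WT arrays (Rps25) and 1 above (Rps4x), beside 2.69% and 1.71% of all genes. Rps25 lies on chromosome 9, as does Aplp2. The other members on that chromosome, Rpl4, Rpl14, Rpsa and Rps27l, had changes of 0.05, 0.005, 0.06 and 0.04 in APLP2_KO. The windows at their annotated starts begin at bases 64173375, 120571505, 120127754 and 66946074, and that of Rps25 at 44407702. The position of Aplp2 on chromosome 9 is not given here, so distances from the targeted gene cannot be read from these bases. The part of chromosomal position in the Rps25 value was not tested. Rps25 has only 1 probe set with 1 symbol, so no second one bears on it. That probe set read far below the median member signal of 10081.9, with a mean log2 signal of 8.36. Those tested for Rps6, Rps27 and Rpl39 were also dim, at 9.35, 7.91 and 8.20. How well these probe sets report the main transcript of their gene was not tested.

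Rps4l, a paralog of the X-linked Rps4x that lies on chromosome 6, had a like order of groups. It read 1004, 855, 872 and 1041 in N_dCKO, 1513, 1083, 1095 and 1185 in APP_KO, 752, 827, 962 and 862 in APLP2_KO, and 1364, 919, 1413 and 1189 in WT. The single low WT array, number 2, overlapped both groups labelled APLP2-/-. The change was -0.36 ± 0.12 in N_dCKO (SE, adjusted p = 0.217, limma), 0.00 ± 0.12 in APP_KO and -0.50 ± 0.12 in APLP2_KO (adjusted p = 0.192). Without WT array 2 the APLP2_KO value was -0.63 with an adjusted p of 0.0353, the only call of a member under any setting tried. Its parent gene Rps4x, a small-subunit protein, read 13513, 13775, 14493 and 13032 in N_dCKO, 13804, 13861, 15396 and 13990.2 in APP_KO, 14239.8, 14339, 15007 and 14229 in APLP2_KO, and 12854, 13579, 13976 and 14148 in WT, with changes of 0.01, 0.06 and 0.08 in N_dCKO, APP_KO and APLP2_KO.

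Rps6, the small-subunit protein that S6 kinases phosphorylate downstream of mTORC1, was the other member with a small unadjusted p in N_dCKO. Its tested probe set read 661, 442, 664 and 486 in N_dCKO, 548, 671, 657 and 710.3 in APP_KO, 675, 646, 774 and 664 in APLP2_KO, and 652, 756, 640.4 and 737 in WT. The N_dCKO arrays fell into a low pair (2 and 4) and a pair inside the WT range (1 and 3), and the groups overlapped. The change was -0.32 ± 0.12 in N_dCKO (SE, adjusted p = 0.265, limma), -0.11 ± 0.12 in APP_KO and -0.01 ± 0.12 in APLP2_KO. Leaving out 1 array at a time moved the N_dCKO value between -0.41 and -0.21.

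The 2 stalk genes had small changes. Rplp0, the scaffold of the stalk and a common reference gene, read 11891, 11063, 11807 and 11526 in N_dCKO, 11631, 11465, 13722 and 12834 in APP_KO, 12852, 11919, 12273 and 11752 in APLP2_KO, and 11275, 11536, 11929 and 12340 in WT. Its groups overlapped, with changes of -0.02 ± 0.06, 0.07 ± 0.06 and 0.05 ± 0.06 in N_dCKO, APP_KO and APLP2_KO (SE). Rplp2, an acidic P protein, read 15328, 14903, 15848 and 14969 in N_dCKO, 14699, 16257, 16551 and 15828 in APP_KO, 16662, 15303, 16286 and 16415 in APLP2_KO, and 14635, 15565, 15052 and 14249.9 in WT. Its change was 0.04 ± 0.05 in N_dCKO, 0.09 ± 0.05 in APP_KO and 0.12 ± 0.05 in APLP2_KO, where the adjusted p was 0.558 (limma), and APLP2_KO array 2 lay within the WT range.

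Among other small-subunit genes named for their roles, Rpsa (the laminin-receptor precursor) had changes of 0.03, 0.09 and 0.06 in N_dCKO, APP_KO and APLP2_KO. Rps3, at the mRNA entry channel, had -0.02, 0.05 and 0.00. Rps14, the haploinsufficient gene of the 5q- syndrome, had -0.02, 0.03 and 0.04. Rps19 had -0.04, 0.03 and -0.02. These 4 genes had standard errors between 0.04 and 0.05. Rps27, a zinc-finger protein of the small subunit, could not be resolved: it read 120.5, 191, 302 and 340.5 in N_dCKO, 150.3, 436, 318 and 337 in APP_KO, 123, 129, 321 and 312 in APLP2_KO, and 327, 177, 328 and 129 in WT. Each group held both low and high arrays, and the standard error was 0.38.

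Among large-subunit genes, Rpl11, which with Rpl5 binds Mdm2 when ribosome assembly is disturbed, had changes of -0.07, 0.04 and -0.04 in N_dCKO, APP_KO and APLP2_KO. Rpl13a, known for a role in translational silencing of inflammatory mRNAs, had 0.00, 0.01 and 0.03. Rpl39, a small protein of the exit tunnel, had 0.07, -0.27 and 0.06, with a standard error of 0.24. Rpl8, a protein near the peptidyl transferase centre, read 7017, 7189, 7041 and 6899.8 in N_dCKO, 7645, 8072, 7663 and 7775 in APP_KO, 6979, 7702, 7503 and 7567 in APLP2_KO, and 7606, 7387, 7637 and 7156 in WT. All APP_KO arrays lay above all N_dCKO and all WT arrays. The N_dCKO change was -0.15 ± 0.04 against APP_KO (SE, adjusted p = 0.280, limma) and -0.08 ± 0.04 against WT (adjusted p = 0.485). With the tested probe sets, Rpl8 was the only member without overlap in APP_KO against WT, beside 1.06% of all genes higher and 1.57% lower.

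Counted by the tested probe sets alone, 4 members in N_dCKO lay below every APP_KO array (Rps25, Rpl8, Rpl22 and Rps4l) and 0 above. Over all genes these shares were 2.03% and 1.95%. Against APLP2_KO, counted in the same way, 2 members lay below (Rps27l and Rpl27) and 0 above, beside 2.98% and 2.25% of all genes. None of these passed the adjusted threshold.

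The paralog Rps27l, a p53 target that can take the place of Rps27 in the ribosome, had 3 probe sets, each with a value below 0 in N_dCKO against WT. The tested one read 2159, 2257, 2309 and 2431 in N_dCKO, 2179.5, 2510.1, 2617 and 2612 in APP_KO, 2507, 2557, 2499 and 2567 in APLP2_KO, and 2408, 2529, 2326 and 2581 in WT. Its change was -0.10 ± 0.06 in N_dCKO (SE, adjusted p = 0.527, limma), and that of the other probe sets was -0.18 and -0.25, with adjusted p-values of 0.306 and 0.190 when all probe sets were tested singly. The last of these read 1451, 1314, 1314 and 1456 in N_dCKO, 1391, 1309, 1665 and 1687 in APP_KO, 1627, 1616, 1646 and 1723 in APLP2_KO, and 1496, 1672, 1658 and 1744 in WT. There the N_dCKO arrays lay below all WT and APLP2_KO arrays and overlapped the APP_KO arrays, of which array 1 fell within the N_dCKO range and array 2 just below it. The names of these probe sets end in x_at or a_at, which mark probes that can match several transcripts of a gene or of related genes.

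Rpl22 and its paralog Rpl22l1 form a pair in which RPL22 is known to repress Rpl22l1. The tested Rpl22 probe set read 7828, 7289, 7779 and 7319 in N_dCKO, 8025, 8355, 8806 and 8101 in APP_KO, 7971, 7607, 8539.5 and 7938 in APLP2_KO, and 7673, 7973, 8114 and 7774 in WT. Its change was -0.06 ± 0.05 in N_dCKO (SE), with the groups overlapping. The second probe set of Rpl22 read 5004, 4231, 1948 and 4808 in N_dCKO, 2518, 3929.5, 2588 and 2569.9 in APP_KO, 3866, 2819, 2443 and 3226 in APLP2_KO, and 2620.1, 2626, 2436 and 3082 in WT. Its N_dCKO arrays 1, 2 and 4 lay above all APP_KO, APLP2_KO and WT arrays, and array 3 lay below them all, for a change of 0.48 ± 0.22 (adjusted p = 0.421, limma on single probe sets). The remaining probe set of Rpl22 had a change of 0.02. Array 3 was also the N_dCKO array with the highest choroid plexus markers: the mean log2 signal of 10 choroid plexus markers was 5.56, 6.09, 8.71 and 6.18 on the N_dCKO arrays, against 8.62 to 9.78 in APP_KO, 8.83 to 9.23 in APLP2_KO and 9.08 to 10.1 in WT. The part of those cells in the Rpl22 reading was not tested. Rpl22l1 read 6939, 6764, 5427 and 5811 in N_dCKO, 7289.8, 6401, 8029 and 6929 in APP_KO, 6733, 7001, 8138 and 6396 in APLP2_KO, and 5775, 6744, 7294 and 9125 in WT. Its change in N_dCKO was -0.20 ± 0.11 (SE, adjusted p = 0.502, limma), and N_dCKO array 3 lay below the WT range while the other N_dCKO arrays lay within it. Rpl7l1, the remaining tested paralog, had changes of -0.03, -0.07 and 0.03 in N_dCKO, APP_KO and APLP2_KO.

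**Figure D3:**
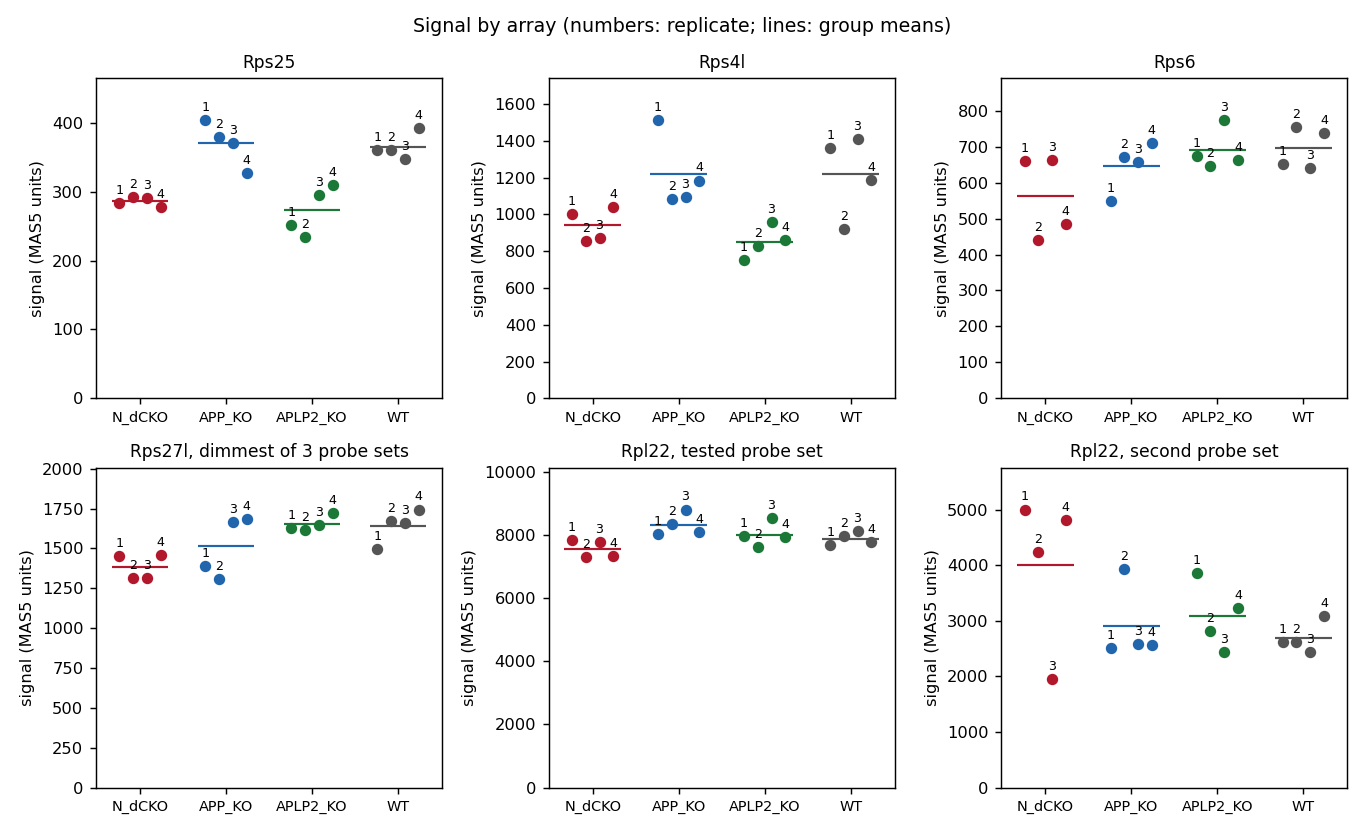
Deposited MAS5 signal on each array for Rps25, Rps4l, Rps6, Rps27l (the dimmest of its probe sets) and Rpl22 (the tested and the second probe set). Points are arrays with their replicate numbers and lines are group means. Rps25 separates the groups labelled APLP2-/- from the others, while the second Rpl22 probe set reads 1948 on N_dCKO array 3 against 4231 to 5004 on the other N_dCKO arrays.

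Probe sets of the same gene often differed in sign at this small scale. Of the 20 genes with at least 2 probe sets above the filter, the changes shared a sign in 10 genes in N_dCKO, 10 in APP_KO and 8 in APLP2_KO, and Rpl13a, Rpl22, Rpl41, Rps24 and Rps9 had opposite signs in all 3. The median range between probe sets of a gene was 0.11 in N_dCKO, 0.10 in APP_KO and 0.13 in APLP2_KO, larger than the median change of the family. The widest ranges were those of Rpl22 in N_dCKO (0.55), Rps9 in APP_KO (0.40) and Rpl41 in APLP2_KO (0.60). For Rps9, a decoding-site protein of the small subunit, an untested probe set with a name ending in x_at read 4949, 5019, 4759 and 4811 in N_dCKO, 4659.6, 4705, 3138 and 3226 in APP_KO, 5132, 5392, 4659 and 5034 in APLP2_KO, and 4818, 5376, 4052 and 4959.6 in WT. APP_KO arrays 3 and 4 were the lowest of the 16, and the change of -0.31 ± 0.11 in APP_KO (SE, adjusted p = 0.912, limma on single probe sets) stood beside 0.03 ± 0.06 for the tested probe set. For Rpl41, which encodes a very short basic peptide of the large subunit, the changes in APLP2_KO ran between -0.37 and 0.23 over 4 probe sets. For Rps24 the tested probe set gave 0.03, 0.06 and 0.10 in N_dCKO, APP_KO and APLP2_KO.

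**Figure D4:**
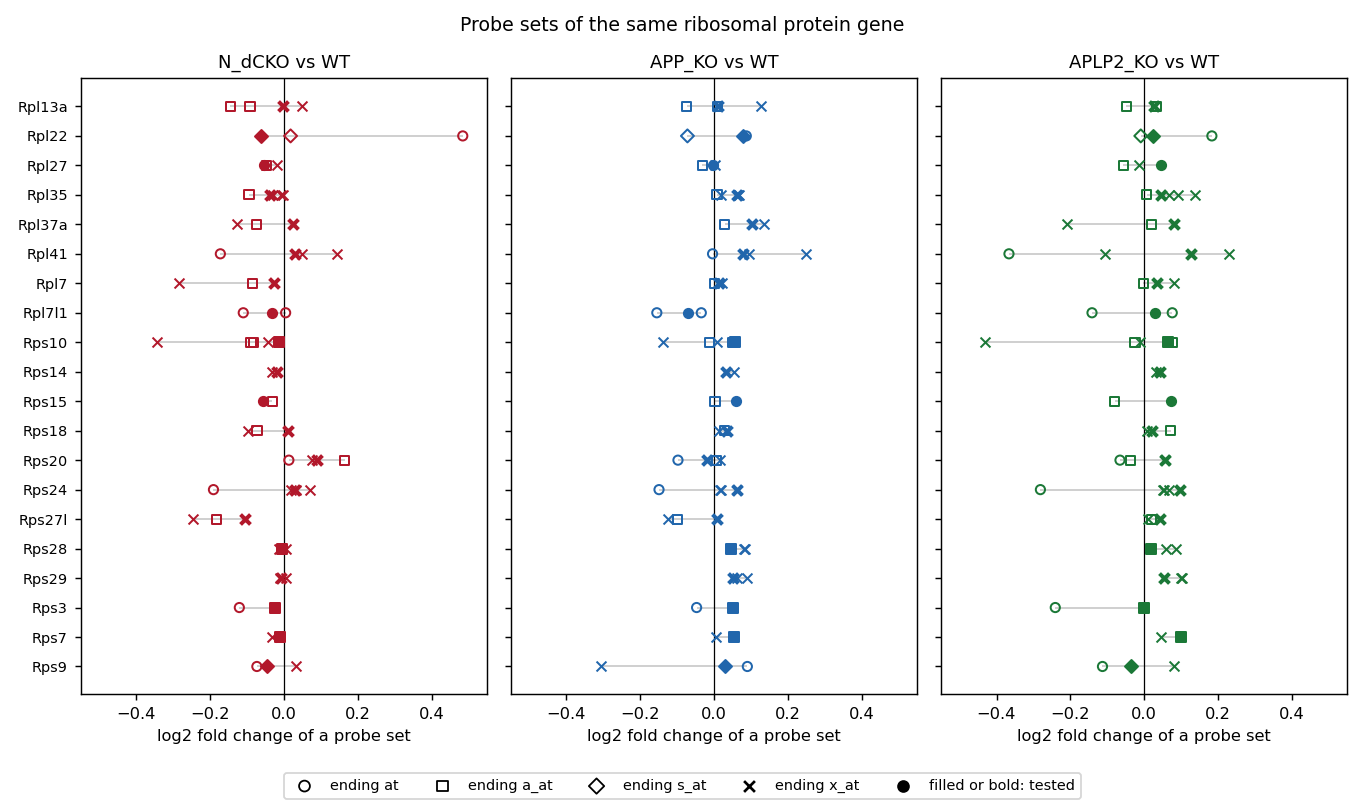
Log2 fold change of each probe set above the filter for the 20 ribosomal protein genes with at least 2, in N_dCKO, APP_KO and APLP2_KO, each against WT. Marker shapes show the ending of the probe set name, filled or bold markers are the probe sets tested for the gene, and grey lines join the probe sets of a gene. Rpl22 has the widest range in N_dCKO (0.55) and Rpl41 in APLP2_KO (0.60).

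Members with and without a TOP-like start had medians close to each other. In N_dCKO against WT, the 16 tested genes with a TOP-like start had a median change of -0.01, and the 24 tested genes without one -0.03. The medians were 0.03 and 0.05 in APP_KO, and 0.02 and 0.05 in APLP2_KO. The difference between the 2 sets of genes was not tested.

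Genes around the ribosome were described from lists that do not overlap the family. Of 20 translation factors and other products of TOP mRNAs, 0 were called in any of the 6 comparisons by limma. Their median change was -0.04 in N_dCKO, with 3 above 0 and 17 below, against 0.02 in APP_KO and 0.003 in APLP2_KO. Gas5, a non-coding TOP transcript, had -0.16 ± 0.07 in N_dCKO (SE, adjusted p = 0.395), and Eif3e, a subunit of the initiation factor that binds the small subunit, had -0.09 ± 0.04 (adjusted p = 0.469). Of 19 genes of mTORC1 and its control of TOP mRNAs, 0 were called, with medians of 0.02, 0.03 and 0.04 in N_dCKO, APP_KO and APLP2_KO. Rheb, the GTPase that activates mTORC1, had 0.19 ± 0.06 in N_dCKO (adjusted p = 0.193), and Larp1, which binds the TOP tract, had 0.14 ± 0.06 (adjusted p = 0.332). Of 39 genes of ribosome assembly, 0 were called and the medians were 0.01, 0.003 and -0.01. The assembly factors Sbds, which helps release Eif6 from the large subunit, and Tsr1, which acts on the small subunit, had -0.16 ± 0.09 and 0.11 ± 0.07 in N_dCKO (adjusted p = 0.498 and 0.573). Of 76 mitochondrial ribosomal protein genes, which serve a separate ribosome, 0 were called, with medians of -0.05, -0.01 and -0.03. Mrpl47 and Mrps6, proteins of its large and small subunits, had 0.30 ± 0.10 and -0.20 ± 0.07 in N_dCKO (adjusted p = 0.195 and 0.226). At an unadjusted p below 0.05 in N_dCKO against WT, 0 translation factors and TOP products were higher and 1 lower, 3 mTORC1 genes were higher and 0 lower, 0 assembly genes passed in either direction, and 1 mitochondrial gene was higher and 5 lower, beside 5.11% of all genes higher and 6.87% lower.

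Markers of other cell types of the region were read on the same arrays. In N_dCKO against WT, all 10 tested choroid plexus markers were called lower (median -2.84, led by Kl, Clic6 and Cldn2 with the smallest p). Of 11 microglial markers, 5 were called lower (C1qa, C1qb, C1qc, Fcrls and Tyrobp, list median -0.41). All 11 microglial changes were below 0, 9 of them at an unadjusted p below 0.05. Of 11 oligodendrocyte markers, 1 was called lower (Mal, -0.90 ± 0.20, adjusted p = 0.0308, limma), and the list median was -0.52. Of the oligodendrocyte markers, 10 of 11 were lower at an unadjusted p below 0.05, among them Mag (-0.50, adjusted p = 0.0576) and Opalin (-0.66, adjusted p = 0.0590). The mean log2 signal of that list ranged between 11.8 and 12.2 in N_dCKO and between 12.4 and 12.9 in WT, without overlap. The mean log2 signal of the microglial list ranged between 9.38 and 9.63 in N_dCKO and between 9.87 and 9.97 in WT. Of 10 markers of hippocampal neurons, 8 of astrocytes, 7 of endothelium and 1 of erythrocytes, limma called 0 in N_dCKO, with medians of 0.12, 0.15, 0.0002 and -0.30. These lists held, at an unadjusted p below 0.05, 1 neuronal marker higher and 1 lower, 4 astrocyte markers higher and 0 others. The neuronal list was well detected, with a mean between 11.7 and 11.9 on the log2 scale on every array. In APP_KO and APLP2_KO against WT, 0 markers of these lists were called by limma, and at an unadjusted p below 0.05 the largest counts were 9 of 11 oligodendrocyte markers lower in APP_KO and 7 of 11 microglial markers lower in APLP2_KO. The part of these cells in the ribosomal protein values was not tested. Without any single N_dCKO array, array 3 included, 0 members were called in N_dCKO against WT and the median stayed between -0.04 and -0.02.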

How the data were processed

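Biotin-labelled cRNA from total RNA extracted with Trizol was hybridized to 16 arrays, per the labels' protocols. The authors deposited MAS5 intensity values on a linear scale, per the submitters' processing notes (version not given in the sources used here); trimmed means were equal across arrays, so this scaling was kept. Precision is limited by 4 arrays per group. Signals became log2(signal + 9), the pseudocount being set from the median signal. Probe sets at or above the median mean log2 signal (6.60) were kept, with the one of highest mean for each gene. limma 3.58.1 in R 4.3.3 fitted 1 mean per group to all 16 arrays, with a variance trend and 12 residual degrees of freedom. In each of 6 comparisons the Benjamini-Hochberg adjustment of the two-sided p ran over 11665 genes, and genes below 0.05 were called. The script was tested on simulated data. Promoter windows come from RefSeq (GRCm38.p6). Named genes were called genes, members whose groups did not overlap, the 5 members of smallest p against WT, genes listed for their roles, members with discordant probe sets, and in each other list the 2 of smallest p and any called. Members from comparisons among knockouts and the examples Rpl7a and Rps15 were named after their values were seen. Members and lists were chosen with earlier results of these data known. Alternatives covered the pseudocount, filter, normalization, probe sets, variance model, replicate block and left-out arrays. Probe sets with several symbols entered no comparison.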

Additional observations from a re-analysis of the deposited data

Results flagged for a closer look

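Of 100 sets of 4 arrays examined for a single array far from the others, 3 had one, and chance alone gives about 1 in 20. Rps14 read 17620 on APLP2_KO array 1, against 15661 to 15989 on the other APLP2_KO arrays. Rps4x read 15396 on APP_KO array 3, against 13804 to 13990.2 on the other APP_KO arrays, and 15007 on APLP2_KO array 3, against 14229 to 14339 on the other APLP2_KO arrays. In both groups array 3 also had the highest signal of its group for any probe set, and the part of that in these readings was not tested.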

How the results depend on the processing

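Between 22 and 29 settings were tried for each comparison. The count of called ribosomal protein genes was 0 under each of them, except in APLP2_KO against WT, where leaving out 1 array gave between 0 and 1 calls (Rps4l without WT array 2). The median change of the family moved with some settings. Quantile normalization gave 0.000751 in APLP2_KO against WT, -0.0063 in N_dCKO against APLP2_KO and -0.025 in the contrast of double and single knockouts. Centring each array on its median, which used array medians between 6.47 and 6.79 on the log2 scale, gave, against WT, -0.11 in N_dCKO, -0.046 in APP_KO and -0.034 in APLP2_KO, and -0.045 in that contrast; the medians of all genes moved with it, to -0.092, -0.095, -0.086 and 0.089, and the family's distance from them was as without centring. The Gapdh ratio as a covariate gave 0.035 in N_dCKO against WT. The cause of the quantile and Gapdh moves was not tested. Of the other values from the settings that keep all arrays, 158 medians and counts and 745 values of single genes stayed within the spread or on the same side of the threshold, and 63 values of single genes moved by more, without a call: 42 with median centring, 6 with the mean over probe sets, 4 with the Gapdh ratio and 11 with fewer probe sets. The last setting, restricting the fit to probe sets with names not ending in x_at or s_at, was chosen after the data were seen and put Rpl22 at 0.48 in N_dCKO in place of -0.06. Deviations of same-numbered arrays of different groups had correlations between -0.02 and 0.30 (mean 0.08), and those of arrays with other numbers between -0.20 and 0.17 (mean -0.03). All 16 of 16 arrays correlated best with arrays of their own number, so the arrays share some structure by replicate number. The main fit did not model the number, and its standard errors and p-values take no account of that structure. With the replicate block, 0 members were called, beside 1.7% of all genes in N_dCKO and 0.257% in APLP2_KO against WT. Without the block these shares of all genes were 0.943% and 0.129%.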

Other observations

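A further 110 probe sets carry several symbols of which at least 1 fits the rule for ribosomal protein genes, and 31 such symbols are found only there. Of these probe sets, 98 were above the filter, and limma on single probe sets called 0 of them in each of the 6 comparisons. Over all probe sets, 0.665% were called in N_dCKO, 0.0133% in APP_KO and 0.146% in APLP2_KO against WT. The shares were 0.262% in N_dCKO against APP_KO, 0.0266% against APLP2_KO and 0% in the contrast of double and single knockouts. In N_dCKO against WT, 33 had a change above 0 and 65 below (median -0.02), with 1 higher and 2 lower at an unadjusted p below 0.05, beside 5.65% and 5.59% of all probe sets. In APP_KO, 78 were above 0 and 20 below (median 0.04), and in APLP2_KO 69 and 29 (median 0.02). At that level 1 was higher and 1 lower in APP_KO, beside 2.23% and 2.68% of all probe sets, and 5 were higher and 1 lower in APLP2_KO, beside 3.31% and 3.79%. In N_dCKO, 4 were higher and 8 lower than in APP_KO (3.9% and 3.59% of all probe sets), and 1 higher and 9 lower than in APLP2_KO (3.77% and 3.72%). In the contrast of double and single knockouts, 3 had a positive and 16 a negative value at that level (1.92% and 2.21% of all probe sets). Within 0.1 of no change lay 85, 83 and 78 of the 98 in N_dCKO, APP_KO and APLP2_KO. For all probe sets, the shares above 0 and within 0.1 of no change are not given here. The counts by sign and within 0.1 thus have no background to be read against.

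The control probe sets for the 3′ end of 18S ribosomal RNA, the RNA core of the small subunit, read 4809.8, 4310, 5273 and 5003 in N_dCKO, 6276, 6226, 4301 and 4682 in APP_KO, 6154, 6143, 5143 and 5252 in APLP2_KO, and 5804, 5592, 4009 and 3776 in WT. With this 3′ probe set, arrays 1 and 2 read higher than arrays 3 and 4 in APP_KO, APLP2_KO and WT, and lower in N_dCKO. The middle and 5′ probe sets of the same RNA kept that order in APP_KO, APLP2_KO and WT, but not in N_dCKO. There the middle one read 3034, 2071, 2269 and 3385 and the 5′ one 12015, 7708, 9485 and 11678. The labels do not say what the replicate numbers stand for.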
